A study of Mus musculus with 2 samples.

Results

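Corticotropes and melanotropes, the Pomc-expressing cells of the mouse pituitary gland, were compared with somatotropes and lactotropes, the cells that make growth hormone (Gh) and prolactin (Prl). Cells were chosen by the share of their transcripts that came from hormone genes, counted as unique molecular identifiers (UMIs). Barcodes with fewer than 250 genes, or with more than 20% of UMIs from mitochondrial genes, were set aside, which left 13565. The Pomc side held barcodes with Pomc at 1% of UMIs or more and with Gh and Prl each under 10% and Cga, the common subunit of the glycoprotein hormones, under 1%. Among these, corticotropes had at most 1 UMI of Pcsk2, and melanotropes had Pomc above 20% and at least 3 UMIs of Pcsk2, which encodes a convertase that cleaves ACTH on the way to α-MSH. The Gh and Prl side had Pomc and Cga each under 1%, with Gh above 30% and Prl under 10% in somatotropes, and Prl above 15% and Gh under 10% in lactotropes. These rules placed 10616 of 13663 barcodes, 803 on the Pomc side (581 corticotropes and 222 melanotropes) and 9813 on the Gh and Prl side (7109 somatotropes and 2704 lactotropes).

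The cells came from 2 libraries, each a pool of 3 pituitary glands of male C57BL/6 mice aged 7 weeks, digested for 4 h and profiled with droplet 3′ RNA sequencing. There was no other treatment, genotype or time point, so each comparison is between cell types of the same pools. The replicate is the pool (n = 2), and single animals cannot be told apart. Each p-value weighs a difference between groups against the disagreement of the pools that remains after their shared shift is removed. That spread is estimated over all groups in the fit and with help from the other genes. It does not measure variation between single animals. Library 1 held 6546 barcodes with a median of 10128 UMIs, and library 2 held 7117 with a median of 10636. A total of 54 barcode sequences occurred in both libraries, 39 of them on cells used in both.

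In the pituitary, the T-box factor TPIT, encoded by Tbx19, drives terminal differentiation of the POMC-producing cells and activates Pomc together with PITX1. The POU-homeodomain factor POU1F1 (PIT1) is required for somatotropes, lactotropes and thyrotropes and binds the Gh and Prl promoters. Corticotropes of the anterior lobe process POMC to ACTH, whereas melanotropes of the intermediate lobe, specified by PAX7, process it further to α-MSH and β-endorphin.

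The starts of Tbx19, Pou1f1, Pomc and Prl are shown first because the first pair are the known lineage factors and the hormone genes Pomc and Prl took part in choosing the cells; the start of Gh is not shown here. The stretches are the 250 bases upstream of the RefSeq start (GRCm38.p6), read 5′ to 3′ on the gene's strand. Capitals mark matches to TATNCAT, a core of the POU1F1 site, or its reverse complement.

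Tbx19, chr1:165160774-165161023, minus strand: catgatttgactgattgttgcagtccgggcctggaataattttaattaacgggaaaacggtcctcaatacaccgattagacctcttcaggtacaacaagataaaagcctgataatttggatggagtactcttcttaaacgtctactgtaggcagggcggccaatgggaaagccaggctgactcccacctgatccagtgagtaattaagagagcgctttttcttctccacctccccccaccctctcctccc

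Pomc, chr12:3954695-3954944, plus strand: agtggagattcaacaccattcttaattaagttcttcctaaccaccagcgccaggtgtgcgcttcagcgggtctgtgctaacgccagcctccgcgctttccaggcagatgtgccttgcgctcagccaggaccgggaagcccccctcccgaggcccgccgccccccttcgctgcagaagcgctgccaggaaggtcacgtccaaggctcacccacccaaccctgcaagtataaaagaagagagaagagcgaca

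Pou1f1, chr16:65520262-65520511, plus strand: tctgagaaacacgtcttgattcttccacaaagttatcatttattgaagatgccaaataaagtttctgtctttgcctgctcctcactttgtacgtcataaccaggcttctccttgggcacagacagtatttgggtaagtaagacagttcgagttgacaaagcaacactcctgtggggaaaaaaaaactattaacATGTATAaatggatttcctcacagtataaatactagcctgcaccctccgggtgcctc

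Prl, chr13:27057320-27057569, plus strand: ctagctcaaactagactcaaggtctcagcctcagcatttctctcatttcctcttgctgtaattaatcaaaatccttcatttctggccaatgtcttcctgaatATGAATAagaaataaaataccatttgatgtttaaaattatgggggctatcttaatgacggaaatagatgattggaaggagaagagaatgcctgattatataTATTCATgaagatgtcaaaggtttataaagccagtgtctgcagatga

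The Pou1f1 stretch held 1 match, with its first base 57 bases upstream of the start. The stretch before another RefSeq start of Pou1f1, at chr16:65523059-65523308, held none. The Prl stretch held 2, at 148 and 47 bases upstream. The Tbx19 and Pomc stretches held no match to TATNCAT, to the T-box half-site TCACACC or to the PITX site TAATCC on either strand. Bases further upstream were not searched. The absence of a match in these stretches thus does not show that Pomc lacks sites for TPIT or PITX1. The matches found are matches of letters and do not show binding.

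The 4 groups were first checked for size and for the hormone genes that chose them. Corticotropes made up 4.27 ± 0.598% of the barcodes that passed the quality limits (mean ± SD, n = 2 libraries), melanotropes 1.63 ± 0.177%, somatotropes 52.5 ± 3.26% and lactotropes 19.9 ± 1.87%. The median cell had 5.07% of its UMIs from Pomc among corticotropes and 42.9% among melanotropes. Of the corticotropes, 48.4% had under 5% Pomc and 8.43% had above 20%. The median Gh share was 61.5% in somatotropes and the median Prl share 36.8% in lactotropes. On the far side of each limit, Pomc took a median of 0.0234% of UMIs in somatotropes and 0.0348% in lactotropes, and Gh took 1.09% in corticotropes and 0.815% in melanotropes, where the endothelial cells of the same libraries, gated by their own markers, had 0.0281% Pomc and 0.937% Gh. These values used the genes of the gates and are a description only.

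Near the corticotrope limit, among cells with at most 1 Pcsk2 UMI, 28 had a Pomc share of 0.5 to 1% and 74 had 1 to 2%. Near the melanotrope limit, among cells with at least 3 Pcsk2 UMIs, 6 had a Pomc share of 15 to 20% and 11 had 20 to 25%, and 14 cells had 2 Pcsk2 UMIs. Around the Gh limit, 77 cells lay at 25 to 30% and 103 at 30 to 35%, and around the Prl limit 265 lay at 10 to 15% and 268 at 15 to 20%. Another 32 barcodes had at least 1% Pomc together with Gh above 30%, and 21 had at least 1% Pomc with Prl above 15%, and these entered neither side. On the map of cells that the authors deposited, 83.1% of the 15 nearest neighbours of a corticotrope were also corticotropes and 3.84% were melanotropes. Of the neighbours of a melanotrope, 73.8% were melanotropes, 8.83% corticotropes, 1.83% somatotropes and 2.76% lactotropes. Because that map was made from the same counts, hormone genes included, it is not independent of the gates.

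**Figure D1:**
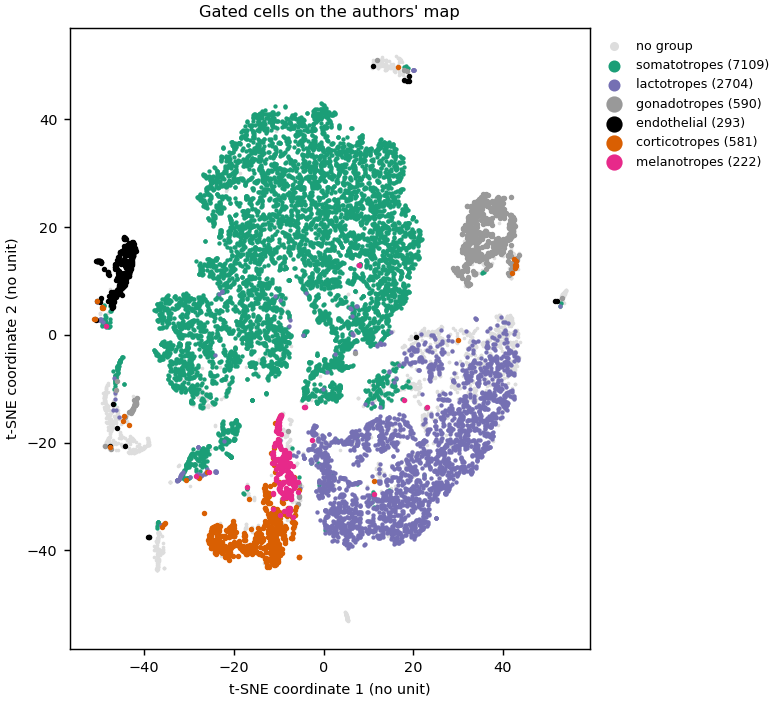
Position of the gated cells on the authors' deposited t-SNE map (both axes without unit), 1 point per barcode, coloured by group with the number of cells in brackets. The 581 corticotropes and 222 melanotropes lie next to each other and mostly apart from the 7109 somatotropes and 2704 lactotropes.

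UMIs were summed over the cells of each group in each library, which gave 4 values per side. Levels of single genes are counts scaled to a fixed total after TMM normalization (CPM), always as library 1 and then library 2. Of 12117 genes tested, 1169 had all 4 values of the Pomc side above all 4 of the other (9.65%), and 1435 had all 4 values of the Gh and Prl side above (11.8%). Most of these gaps were small. With at least 50 CPM in the lowest value of the higher side and at least 2-fold between it and the highest value of the lower side, 15 genes remained for the Pomc side (0.124%) and 11 for the Gh and Prl side (0.0908%). With totals that leave out 7 hormone genes, 25 and 19 genes met this limit, among them 15 of the 15 and 10 of the 11. With either library left out, which leaves 2 values per side, 19 to 20 and 19 did, the 15 and 11 among them. Since the genes were chosen by these values, no p-value is given for them.

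The lineage factors had the widest gaps of their sides. Tbx19 (chr1:165137855-165160773, minus strand) stood at 123 and 120.3 CPM in corticotropes, 60.8 and 55.8 in melanotropes, 1.09 and 0.835 in somatotropes and 0.487 and 0.539 in lactotropes. The lowest value of the Pomc side was 51.2 times the highest of the other, which was 1.09 CPM, where endothelial cells had 1.90 and 0.710 CPM. Pou1f1 (chr16:65520511-65535005, plus strand) stood at 5.67 and 4.30 CPM in corticotropes, 4.24 and 4.29 in melanotropes, 195 and 200.5 in somatotropes and 356 and 322 in lactotropes. Here the lowest value of the Gh and Prl side was 34.3 times the highest of the Pomc side, where the level was near the 6.66 and 4.26 CPM of endothelial cells. Both factors were also low in gonadotropes, the cells that make LH and FSH, at 1.06 and 1.20 CPM for Tbx19 and 5.58 and 4.31 CPM for Pou1f1.

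Single cells showed the same order when each was thinned to 2000 UMIs outside the hormone genes (exact binomial 95% intervals, which cover counting error only). A UMI of Tbx19 was found in 34.5% (28.6 to 40.8) of corticotropes in library 1 and 30.8% (25.8 to 36.1) in library 2, and in 29.2% (20.1 to 39.8) and 15.4% (9.38 to 23.2) of melanotropes. It was found in 0.428% (0.234 to 0.718) and 0.206% (0.0828 to 0.424) of somatotropes, 0% (0 to 0.311) and 0.270% (0.0736 to 0.690) of lactotropes, and 0.787% (0.0199 to 4.31) and 0% (0 to 2.20) of endothelial cells. The intervals on the Gh and Prl side overlapped the endothelial interval of the same library. The endothelial intervals rest on 127 and 166 cells and are wide, so the overlap cannot show whether these shares are background. A UMI of Pou1f1 was found in 46.7% (44.96 to 48.4) and 46.97% (45.3 to 48.7) of somatotropes and 63.2% (60.4 to 65.99) and 58.1% (55.6 to 60.7) of lactotropes. The Pomc side had 2.01% (0.655 to 4.62) and 1.83% (0.674 to 3.94) in corticotropes and 1.12% (0.0284 to 6.10) and 1.71% (0.208 to 6.04) in melanotropes. Endothelial cells had 0.787% (0.0199 to 4.31) and 0.602% (0.0153 to 3.31), with overlapping intervals that have the same limit. The thinning left out 4 corticotropes, 16 melanotropes, 440 somatotropes and 37 lactotropes. Before thinning, median depth outside the hormone genes was 3960 UMIs in corticotropes, 4189 in melanotropes, 5112 in somatotropes, 5692 in lactotropes and 4419 in endothelial cells, and Tbx19 was found in 53.0% of corticotropes and 33.7% of melanotropes and Pou1f1 in 75.1% of somatotropes and 89.1% of lactotropes (means of the libraries).

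Of the 4 groups, Neurod1, Pax7 and Rxrg were each found mainly in 1. After thinning, Neurod1, a bHLH partner of TPIT at the Pomc promoter, had a UMI in 12.4% (8.62 to 17.2) and 12.2% (8.86 to 16.2) of corticotropes and in 0 of 206 melanotropes, but outside the 4 groups it was also found in 12.98% (9.31 to 17.4) and 8.25% (5.41 to 11.9) of gonadotropes. Pax7 had one in 25.8% (17.1 to 36.2) and 17.9% (11.5 to 26.1) of melanotropes and in 3 of 577 corticotropes. Rxrg, a retinoid X receptor, had one in 21.3% (19.9 to 22.8) and 18.4% (17.2 to 19.8) of somatotropes but in 2.53% (1.71 to 3.59) and 1.28% (0.774 to 2.00) of lactotropes. Pitx1, which acts in all hormone lineages, was found on both sides.

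**Figure D2:**
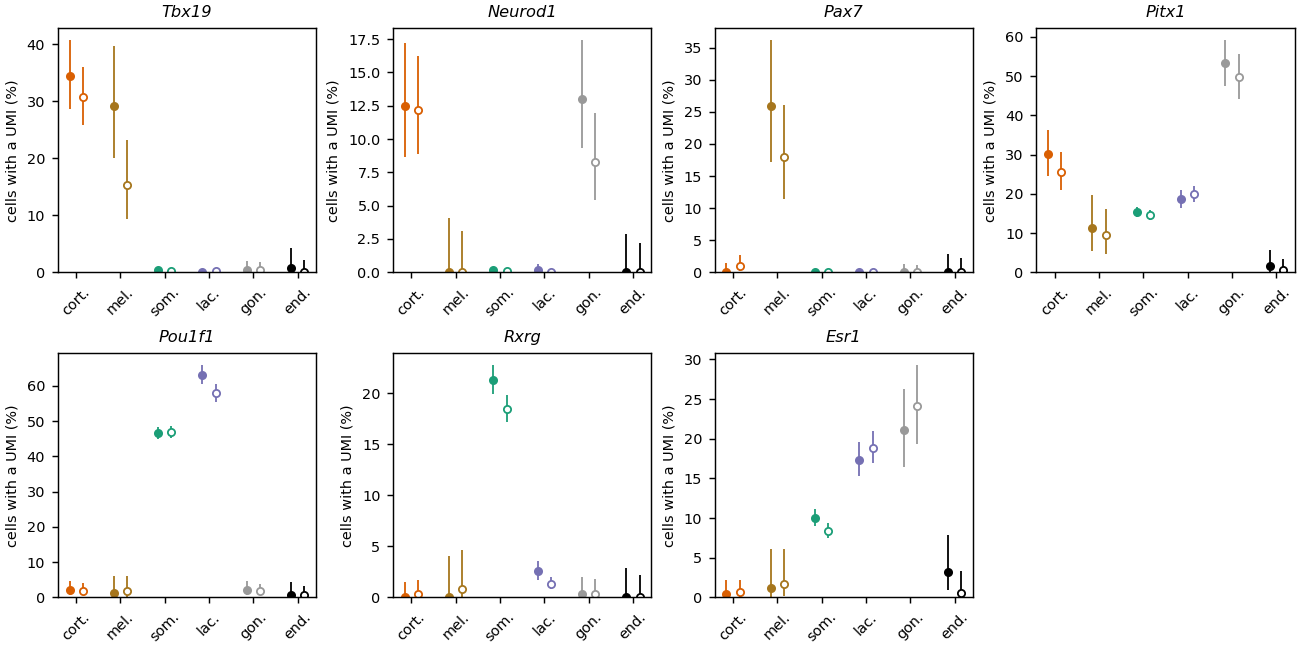
Share of cells with at least 1 UMI of 7 transcription factors after thinning each cell to 2000 UMIs outside the hormone genes, by group (cort., corticotropes; mel., melanotropes; som., somatotropes; lac., lactotropes; gon., gonadotropes; end., endothelial cells). Filled points are library 1, open points library 2 and lines exact binomial 95% intervals; the vertical axes start at 0 and differ between panels. Tbx19 is high in corticotropes and melanotropes and Pou1f1 in somatotropes and lactotropes, while Neurod1, Pax7 and Rxrg are each high in 1 of the 4 groups.

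Behind Tbx19, the widest gap of the Pomc side belonged to Sparcl1, which encodes a secreted SPARC-like matrix glycoprotein. It stood at 151 and 153 CPM in corticotropes, 143 and 98.6 in melanotropes, 1.91 and 1.57 in somatotropes and 2.53 and 2.00 in lactotropes. All 4 Pomc-side values lay above every other hormone group, and above the 37.1 and 45.5 CPM of endothelial cells, a known source of this transcript. Pabpc1l, a cytoplasmic poly(A)-binding protein, stood at 70.3 and 74.8 CPM in corticotropes, 167 and 137 in melanotropes, 1.57 and 1.06 in somatotropes and 8.86 and 8.86 in lactotropes. Ccdc109b, which encodes the inhibitory subunit of the mitochondrial calcium uniporter, stood at 187 and 181 CPM in corticotropes, 189 and 226 in melanotropes, 11.2 and 11.8 in somatotropes and 36.1 and 35.4 in lactotropes. For both genes the lactotrope values were above the somatotrope values, but neither reached the Pomc side.

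Ptgds encodes prostaglandin D2 synthase. Its values were 76.5 and 73.05 CPM in corticotropes, 119 and 102 in melanotropes, 1.57 and 1.12 in somatotropes and 15.4 and 13.02 in lactotropes. Nr4a2 (NURR1), an orphan nuclear receptor that with NUR77 acts on the Pomc promoter downstream of CRH, had 160.4 and 159 CPM in corticotropes, 133 and 176 in melanotropes, 21.5 and 32.4 in somatotropes and 40.1 and 61.7 in lactotropes. Melanotropes and corticotropes overlapped in Nr4a2, and library 2 was the higher library in 3 of the 4 groups. Rorb, the retinoid-related orphan receptor β, had 71.4 and 73.9 CPM in corticotropes, 53.7 and 69.7 in melanotropes, 11.7 and 14.3 in somatotropes and 11.7 and 16.6 in lactotropes, and gonadotropes, at 39.6 and 55.1 CPM, lay between the sides or within the range of the Pomc side.

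The remaining genes of the Pomc side were Chd3 (a NuRD chromatin remodeller), Map2 (a neuronal microtubule-associated protein), Cnn3 (the actin-binding calponin 3), Tspan6 (a tetraspanin), Tmem158, Usp29 (an imprinted deubiquitinase gene next to Peg3), AW551984 and B630019K06Rik. Map2 stood at 83.9 and 73.05 CPM in corticotropes, 116 and 92.2 in melanotropes, 29.2 and 27.7 in somatotropes and 17.9 and 17.9 in lactotropes. AW551984 was only just past the 2-fold limit, with 2.05 times between its lowest Pomc-side and its highest other value, although corticotropes had 417 and 414 CPM against 67.8 and 80.4 in melanotropes and 33.02 and 29.5 in somatotropes. Just outside the limit, Nfat5 had a gap of 1.79 times and Unc80 of 1.72 times.

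Thy1, Gpc4 and Emb were among the 11 genes of the Gh and Prl side. Thy1, a GPI-anchored glycoprotein, stood at 6.24 and 2.15 CPM in corticotropes, 9.89 and 8.58 in melanotropes, 94.6 and 70.9 in somatotropes and 165 and 153 in lactotropes. Gpc4, a heparan sulfate proteoglycan of the glypican family, stood at 14.2 and 10.3 CPM in corticotropes, 4.24 and 4.29 in melanotropes, 116 and 115 in somatotropes and 99.7 and 98.3 in lactotropes. Emb, or embigin, a partner of monocarboxylate transporters, stood at 17.6 and 24.9 CPM in corticotropes, 9.89 and 15.01 in melanotropes, 192 and 199 in somatotropes and 157 and 163 in lactotropes. In all of them the sides did not overlap, and gonadotropes were within the range of the Pomc side for Thy1 and between the sides for Gpc4 and Emb (112 and 102 CPM).

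Igsf1, whose loss causes central hypothyroidism and disturbed prolactin and growth hormone secretion in humans, had 34.6 and 30.5 CPM in corticotropes, 15.5 and 12.9 in melanotropes, 122 and 119 in somatotropes and 194 and 189 in lactotropes. The heparin-binding growth factor gene Ptn (pleiotrophin) had 22.1 and 25.4 CPM in corticotropes, 76.3 and 67.5 in melanotropes, 189 and 169 in somatotropes and 376 and 413 in lactotropes. Gnb3, a G protein β subunit, had 74.3 and 67.5 CPM in corticotropes, 69.3 and 58.97 in melanotropes, 197 and 159 in somatotropes and 161 and 154 in lactotropes, the narrowest gap after that of Serpinh1. Serpinh1 encodes HSP47, a collagen chaperone, and its highest level was in endothelial cells, at 537 and 648 CPM, against 208 and 305 in somatotropes and 88.4 and 101 in corticotropes. Ctxn3, Htatsf1 (a splicing-associated factor) and 5330429C05Rik completed the set, the last at 1.13 and 0.859 CPM in corticotropes, 4.24 and 2.14 in melanotropes, 71.1 and 55.7 in somatotropes and 62.00 and 59.5 in lactotropes. Just outside the limit were Rbm3, a cold-inducible RNA-binding protein, with a gap of 1.93 times, and Chmp2b of the ESCRT-III complex, with 1.87 times.

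**Figure D3:**
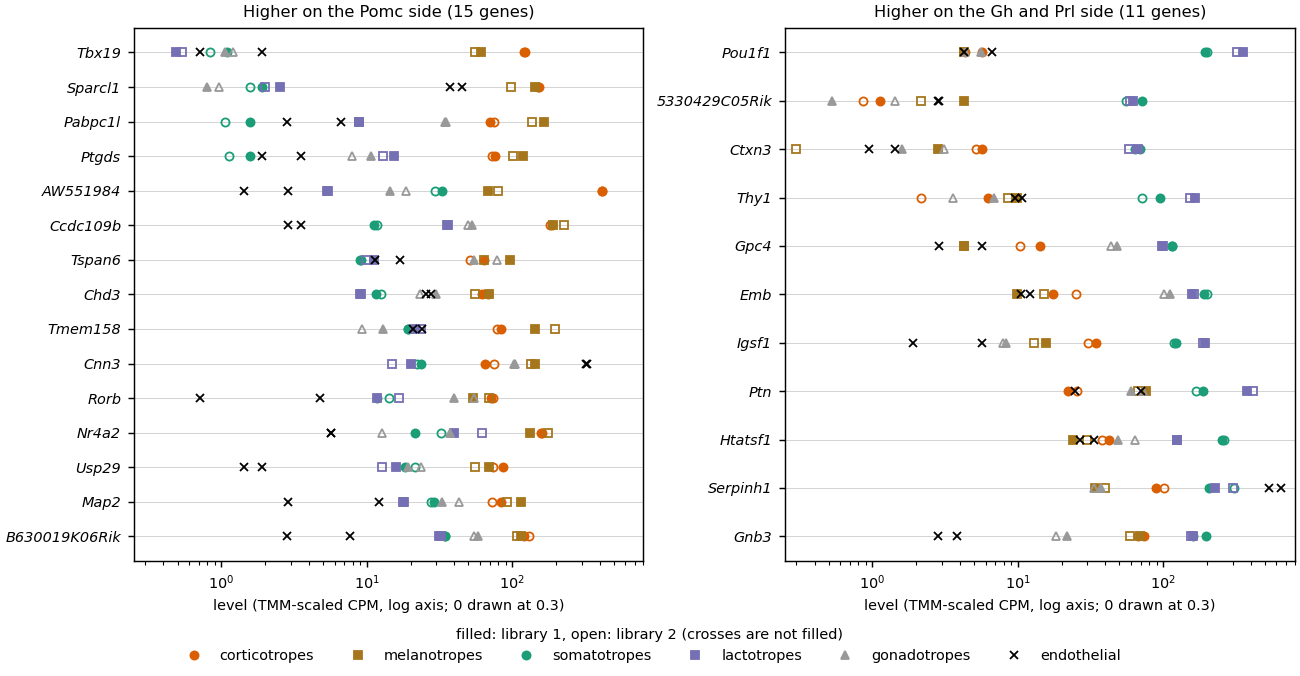
Levels of the 26 genes separated at least 2-fold, 1 row per gene and 1 point per group and library, on a log axis of TMM-scaled CPM with 0 drawn at 0.3. In each panel the 4 points of the higher side lie right of the 4 of the lower side by at least 2-fold, whereas gonadotropes and endothelial cells vary in position.

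Each library was then used to choose genes and the other to look at them. The rule applied to library 1 alone chose 19 Pomc-side genes. In library 2 both Pomc groups were above both other groups for 19 of the 19, and 15 met the whole rule again. Of all genes, at any level and gap, 19.8% were separated in this way. The same rule chose 19 genes of the Gh and Prl side, of which 19 were separated in library 2 (21.9% of all genes) and 11 met the whole rule. Shares for genes of like level were not computed. Chosen in library 2, 20 of 20 and 16 of 19 were separated in library 1. Both libraries were gated with the same limits, so these counts describe agreement between pools and not between gating rules. Under stricter hormone limits 12 of the 15 and 8 of the 11 met the rule, and all 26 stayed separated.

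Gonadotropes belong to neither lineage. Of the 15 Pomc-side genes, gonadotropes lay at or above the lowest Pomc-side value in 2 (Cnn3 and Tspan6, in both libraries), at or below the highest other value in 5 and between in 8. Tbx19 counts among the last 8 only because its 1.20 CPM in library 2 exceeded the 1.09 CPM of somatotropes. Of the 11 genes of the Gh and Prl side they lay at the level of that side in 0, at that of the Pomc side in 8 and between in 3. Among all 1169 genes separated in favour of the Pomc side, gonadotropes lay at the higher side in 465, at the lower in 297 and between in 407. Among all 1435 separated in favour of the Gh and Prl side, these counts were 307, 697 and 431.

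The sides were not uniform inside. Between corticotropes and melanotropes, 2654 of 12117 genes (21.9%) passed edgeR's quasi-likelihood test after Benjamini-Hochberg adjustment, and between somatotropes and lactotropes 6052 (49.9%). Of the 15 separated Pomc-side genes 6 differed between corticotropes and melanotropes (40%). Tbx19 was higher in corticotropes (log2 fold change 1.07 ± 0.17 (SE), adjusted p = 3.73e-06), as was AW551984 (log2 fold change 2.47 ± 0.11 (SE), adjusted p = 1.84e-20). Pabpc1l (log2 fold change -1.05 ± 0.14 (SE), adjusted p = 2.31e-07), Cnn3 (log2 fold change -0.97 ± 0.14 (SE), adjusted p = 1.26e-06), Tmem158 and Ptgds were higher in melanotropes.

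Of the 11 separated genes of the Gh and Prl side 8 differed between its groups (72.7%). Pou1f1 was lower in somatotropes than in lactotropes (log2 fold change -0.78 ± 0.07 (SE), adjusted p = 3.67e-13), and so were Ptn (log2 fold change -1.14 ± 0.07 (SE), adjusted p = 3.46e-16) and Igsf1 (log2 fold change -0.67 ± 0.07 (SE), adjusted p = 4.30e-11). Htatsf1 was higher in somatotropes (log2 fold change 1.05 ± 0.07 (SE), adjusted p = 1.45e-15). With totals that leave out 7 hormone genes, the balance of all calls between these 2 groups moved from 3065 higher in somatotropes and 2987 in lactotropes to 4088 and 2283, with a median shift of 0.11 on the log2 scale, so differences of that size between somatotropes and lactotropes depend on the scaling.

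Gene lists drawn from known pituitary biology were set between the sides with the equally weighted mean of 2 groups against that of the other 2. Over all genes 17.9% were higher on the Pomc side and 20.7% on the Gh and Prl side, and the median log2 difference was -0.04. Among 21 lineage transcription factors measured, 10 were higher on the Pomc side (47.6%) and 5 on the other (23.8%), but 4 and 3 were separated, the latter including Lhx4 at under 0.1 CPM in all 4 groups. Etv1, an ETS factor, had 35.2 and 40.4 CPM in corticotropes, 213 and 224 in melanotropes, 1.97 and 3.15 in somatotropes and 15.4 and 17.9 in lactotropes (log2 fold change 3.79 ± 0.12 (SE), adjusted p = 1.63e-26). Pax7 differed mainly through melanotropes, at 0.567 and 1.29 CPM in corticotropes, 76.3 and 77.2 in melanotropes, 0.204 and 0 in somatotropes and 0.0973 and 0.0771 in lactotropes, and its adjusted p became 0.999 with stricter hormone limits. It counted as separated only by its low corticotrope values. Neurod1 differed through corticotropes, at 56.1 and 37.4 CPM in corticotropes, 1.41 and 0 in melanotropes, 0.783 and 0.482 in somatotropes and 0.487 and 0.154 in lactotropes, with an adjusted p of 0.0205 that became 0.0583 without the pool as a block.

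Six3, a sine oculis homeobox factor, was high in melanotropes and overlapped between corticotropes and lactotropes, at 36.3 and 58.9 CPM in corticotropes, 194 and 209 in melanotropes, 26.2 and 24.7 in somatotropes and 68.6 and 58.8 in lactotropes. On the Gh and Prl side, Neurod4, a bHLH factor, stood at 19.2 and 21.04 CPM in somatotropes and 16.7 and 20.2 in lactotropes and was absent or near absent from the Pomc side (0 and 0.859 in corticotropes, 0 and 0 in melanotropes).

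Nuclear receptors, which carry glucocorticoid, thyroid and sex steroid feedback, were split. Of 21 measured, 7 were higher on the Pomc side (33.3%, against 17.9% of all genes) and 5 on the other (23.8%, against 20.7%). Thrb, the thyroid hormone receptor β, stood at 1.70 and 1.72 CPM in corticotropes, 1.41 and 1.07 in melanotropes, 16.2 and 22.7 in somatotropes and 39.3 and 43.4 in lactotropes (log2 fold change -4.30 ± 0.31 (SE), adjusted p = 2.05e-14). Esr1, the oestrogen receptor α, stood at 2.27 and 1.29 CPM in corticotropes, 8.48 and 5.36 in melanotropes, 32.3 and 26.7 in somatotropes and 62.2 and 62.8 in lactotropes (log2 fold change -3.65 ± 0.22 (SE), adjusted p = 8.21e-17). Both were separated, with lactotropes the highest of the 4 groups. Outside the 2 sides, Esr1 was higher still in gonadotropes, at 81.2 and 88.1 CPM. Rxrg was separated too, with 73.4 and 62.1 CPM in somatotropes, 6.42 and 4.32 in lactotropes and at most 1.07 on the Pomc side.

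The glucocorticoid receptor gene Nr3c1 followed another pattern. Its values were 124 and 106 CPM in corticotropes, 7.07 and 3.22 in melanotropes, 43.3 and 49.5 in somatotropes and 2.73 and 2.16 in lactotropes. Corticotropes and somatotropes were high and melanotropes and lactotropes low, so the sides overlapped despite a side difference that passed the test (log2 fold change 1.15 ± 0.35 (SE), adjusted p = 0.00824). Within the sides the differences were larger, at log2 fold change 4.54 ± 0.31 (SE), adjusted p = 9.32e-15 for corticotropes minus melanotropes and log2 fold change 4.26 ± 0.14 (SE), adjusted p = 1.61e-25 for somatotropes minus lactotropes.

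Of 17 measured receptors for hypothalamic and other signals, 4 were higher on the Pomc side (23.5%, against 17.9% of all genes). Another 6 were higher on the other side (35.3%, against 20.7%). In 7 of the 17, at least 1 group had no UMI in either library. The median of this list was -0.33 as fitted and 0.42 with empty groups set to a floor of 3 counts, so no direction is given for it. Crhr1, the receptor for CRH, stood at 107 and 92.8 CPM in corticotropes, 1.41 and 2.14 in melanotropes, 0.613 and 0.257 in somatotropes and 0.876 and 0.0771 in lactotropes (log2 fold change 4.95 ± 0.92 (SE), adjusted p = 3.79e-05). Avpr1b, the vasopressin receptor of corticotropes, stood at 14.2 and 18.9 CPM there, 0 in melanotropes and at most 0.193 elsewhere on the 2 sides. Ghrhr, the receptor for growth hormone-releasing hormone, stood at 3.97 and 3.01 CPM in corticotropes, 1.41 and 2.14 in melanotropes, 167 and 154 in somatotropes and 4.28 and 4.39 in lactotropes (log2 fold change -3.39 ± 0.27 (SE), adjusted p = 1.14e-13). The side difference in these genes came mainly from corticotropes or from somatotropes, while endothelial cells had 0.951 and 0 CPM of Crhr1 and 4.76 and 2.84 of Ghrhr. Crhr1 and Ghrhr counted as separated, but only by the low values of melanotropes (1.41 and 2.14 CPM) and lactotropes (4.28 and 4.39).

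Prlr, the prolactin receptor, was found in all 4 groups and was highest in somatotropes, at 24.4 and 22.3 CPM in corticotropes, 18.4 and 28.9 in melanotropes, 60.6 and 69.6 in somatotropes and 18.6 and 18.8 in lactotropes.

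Somatostatin receptors differed in kind. Sstr2 stood at 7.49 and 11.5 CPM in somatotropes and 0.292 and 0.308 in lactotropes, with 0 in all 4 Pomc-side values. Sstr5 stood at 12.8 and 13.1 CPM in somatotropes and at most 0.567 in the other 3 groups. Sstr1 was low throughout but higher on the Pomc side, at 1.13 and 4.73 CPM in corticotropes, 4.24 and 6.43 in melanotropes, 0.170 and 0.0643 in somatotropes and 0.876 and 0.308 in lactotropes (log2 fold change 3.94 ± 0.65 (SE), adjusted p = 4.09e-06). Ghr, the growth hormone receptor, was also separated in favour of the Pomc side, at 8.50 and 11.2 CPM in corticotropes, 9.89 and 6.43 in melanotropes, 3.68 and 2.83 in somatotropes and 0.876 and 0.771 in lactotropes (log2 fold change 2.45 ± 0.35 (SE), adjusted p = 2.10e-07). Ghr was higher still outside the 2 sides, at 12.5 and 11.97 CPM in gonadotropes and 19.98 and 17.05 in endothelial cells.

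**Figure D4:**
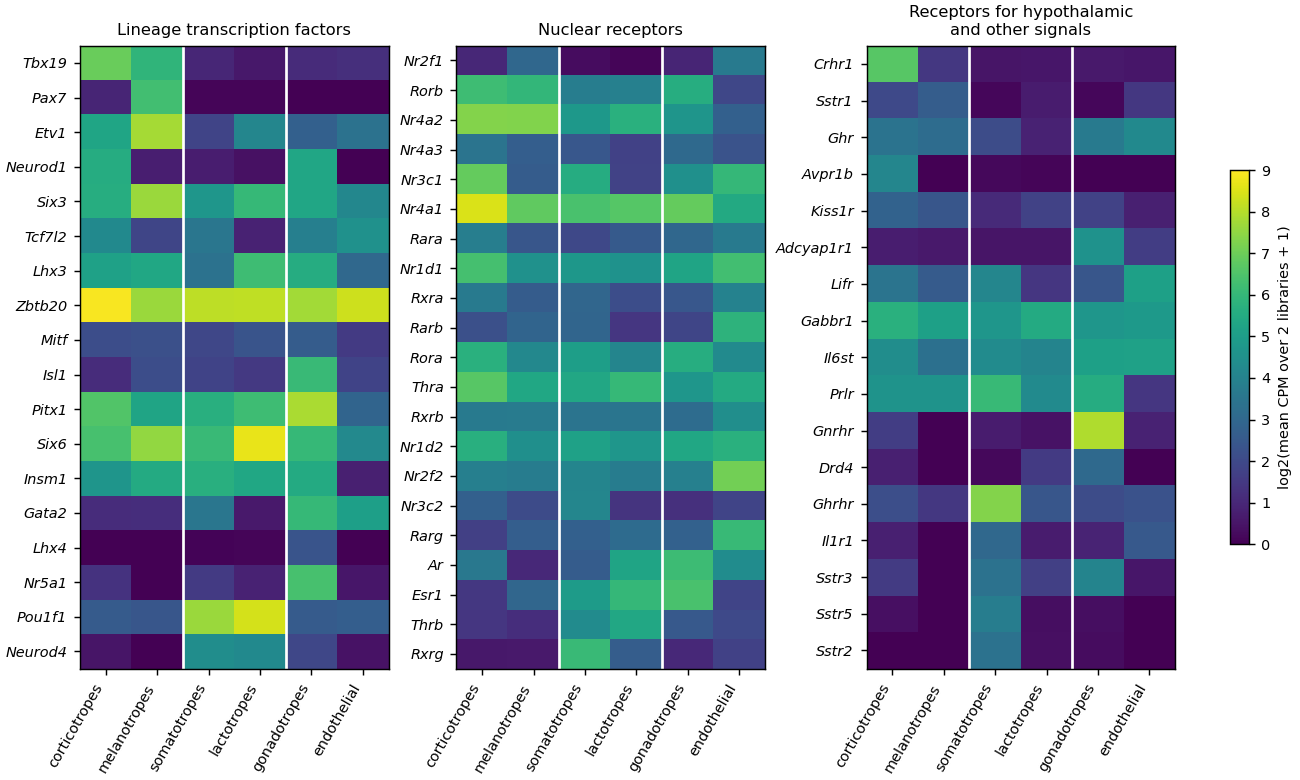
Levels of 18 of the 21 measured lineage transcription factors and of the measured nuclear receptors and receptors for hypothalamic and other signals, as log2 of the mean CPM over 2 libraries plus 1, with genes ordered by the difference between the sides and white lines between the Pomc side, the Gh and Prl side and the other cells. Tbx19 and Pou1f1 hold across both groups of a side, while Pax7, Neurod1, Crhr1, Avpr1b and Ghrhr are high in 1 of the 4 groups.

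Signalling downstream of these receptors leaned to the Pomc side in number. Of 40 G protein and cyclic nucleotide genes, 16 were higher there (40%, against 17.9% of all genes) and 6 lower (15%, against 20.7%). The median was 0.12. Pde1a, a phosphodiesterase, which degrades cyclic nucleotides, had 16.4 and 18.9 CPM in corticotropes, 21.2 and 33.2 in melanotropes, 3.44 and 2.15 in somatotropes and 7.79 and 10.3 in lactotropes (log2 fold change 2.14 ± 0.22 (SE), adjusted p = 3.24e-10). Rgs4, a GTPase-activating regulator of G proteins, had 16.4 and 18.05 CPM in corticotropes, 36.8 and 23.6 in melanotropes, 1.77 and 1.83 in somatotropes and 0.973 and 1.23 in lactotropes (log2 fold change 3.98 ± 0.22 (SE), adjusted p = 1.68e-18), far below the 233 and 235 CPM of gonadotropes. In the other direction, the regulatory subunit gene of protein kinase A Prkar2b was high in somatotropes alone, at 44.9 and 43.2 CPM against 4.47 to 9.07 in the other 3 groups.

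Granule proteins changed in both directions. Of 25 genes for prohormone processing and granules, 11 were higher on the Pomc side (44%, against 17.9% of all genes) and 8 lower (32%, against 20.7%). Chga (chromogranin A) stood at 195 and 191 CPM in corticotropes, 1231 and 1268 in melanotropes, 89.7 and 75.3 in somatotropes and 211 and 194 in lactotropes, so melanotropes set the side difference and corticotropes overlapped with lactotropes. Chgb (chromogranin B) stood at 355 and 297 CPM in corticotropes, 745 and 607 in melanotropes, 844 and 1087 in somatotropes and 6192 and 6518 in lactotropes and was lower on the Pomc side (log2 fold change -2.41 ± 0.14 (SE), adjusted p = 2.56e-04). Pcsk6, a proprotein convertase also called PACE4, had at most 4.24 CPM on the Pomc side against 56.4 and 58.02 in somatotropes and 33.4 and 31.5 in lactotropes (log2 fold change -4.27 ± 0.25 (SE), adjusted p = 8.87e-18). Vgf, a granule peptide precursor, was separated in favour of the Pomc side (log2 fold change 1.58 ± 0.21 (SE), adjusted p = 1.24e-07).

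Of 38 genes of the exocytosis machinery, 16 were higher on the Pomc side (42.1%, against 17.9% of all genes). Another 8 were lower (21.1%), near the 20.7% of all genes. Cadps2, a priming factor for dense-core vesicles, had 70.9 and 66.6 CPM in corticotropes, 49.5 and 58.97 in melanotropes, 11.7 and 9.32 in somatotropes and 18.2 and 17.96 in lactotropes (log2 fold change 2.16 ± 0.13 (SE), adjusted p = 8.48e-18). Rims3, of the RIM active-zone family, had 36.3 and 36.1 CPM in corticotropes, 11.3 and 8.58 in melanotropes, 3.40 and 3.18 in somatotropes and 0.584 and 0.385 in lactotropes (log2 fold change 3.89 ± 0.35 (SE), adjusted p = 4.25e-12). Rab27b, a GTPase of granule docking, was separated in the same direction (log2 fold change 2.77 ± 0.13 (SE), adjusted p = 3.35e-20). The plasma-membrane SNARE gene Snap23 was separated in the opposite direction, at 11.3 and 15.04 CPM in corticotropes, 14.1 and 11.8 in melanotropes, 44.9 and 44.2 in somatotropes and 39.2 and 41.9 in lactotropes (log2 fold change -1.70 ± 0.15 (SE), adjusted p = 1.90e-12), as was the calcium sensor Syt7 (log2 fold change -1.52 ± 0.13 (SE), adjusted p = 1.81e-12).

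Genes for folding and export in the endoplasmic reticulum were mostly lower on the Pomc side. Of 27 measured, 17 were lower (63%, against 20.7% of all genes) and 1 higher (3.7%, against 17.9%). The median was -0.54 against -0.04 for all genes. Under the 11 other settings of the analysis 17 or 18 of the 26 or 27 measured were lower, and the median ranged from -0.57 to -0.46. Sec61b, a subunit of the translocon, stood at 247 and 245 CPM in corticotropes, 667 and 729 in melanotropes, 747 and 746 in somatotropes and 769.7 and 815 in lactotropes (log2 fold change -0.89 ± 0.04 (SE), adjusted p = 6.11e-22). Manf, a stress-induced secreted factor, stood at 269 and 217 CPM in corticotropes, 598 and 613 in melanotropes, 604 and 594 in somatotropes and 984 and 1089 in lactotropes, so melanotropes overlapped with somatotropes. Ero1l, an oxidase of disulfide formation, was the 1 gene in the other direction, and its adjusted p of 0.0156 became 0.0893 with stricter hormone limits.

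For this list, corticotropes lay below all 4 values of the Gh and Prl side in 18 of the 27 genes, against 25.3% of all genes. Melanotropes did so in 11, against 26.2% of all genes. In the direct comparison 16 of the 27 were higher in melanotropes and 4 in corticotropes, with a median of -0.65 for corticotropes minus melanotropes, where 11.4% and 10.5% of all genes were called in these directions.

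Channels for calcium and sodium were more often higher than lower on the Pomc side. Of 21 measured, 9 were higher (42.9%, against 17.9% of all genes) and 1 lower (4.76%, against 20.7%), with a median of 0.71. Scn2a1, a sodium channel α subunit, stood at 4.54 and 6.88 CPM in corticotropes, 74.9 and 82.6 in melanotropes, 0.783 and 0.578 in somatotropes and 3.41 and 2.39 in lactotropes, with melanotropes far the highest (log2 fold change 3.94 ± 0.31 (SE), adjusted p = 8.62e-14). Cacna2d1, an auxiliary calcium channel subunit, stood at 86.7 and 88.1 CPM in corticotropes, 126 and 117 in melanotropes, 30.5 and 33.6 in somatotropes and 75.3 and 72.6 in lactotropes (log2 fold change 1.08 ± 0.08 (SE), adjusted p = 1.05e-14). The 1 gene in the other direction, Scn8a, lost its call with the DESeq2 test (adjusted p = 0.0575) and with stricter limits. Among 36 potassium and other channels, 14 were higher on the Pomc side (38.9%, against 17.9% of all genes) and 7 lower (19.4%, near the 20.7% of all genes). Kcnc1, a fast potassium channel, was separated (log2 fold change 2.92 ± 0.23 (SE), adjusted p = 1.15e-13). Kcnk2, the potassium channel TREK-1, was lowest in melanotropes and overlapped between corticotropes and somatotropes, at 159 and 144 CPM in corticotropes, 0 and 10.7 in melanotropes, 158 and 142 in somatotropes and 37.4 and 34.4 in lactotropes.

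On the list of secreted factors and neuropeptides 27 genes were measured, among them Ramp1, whose product is a membrane protein. Of the 27, 3 were higher on the Pomc side (11.1%, against 17.9% of all genes) and 6 lower (22.2%, against 20.7%). Nmb, the neuromedin B precursor, stood at 43.7 and 19.3 CPM in corticotropes, 76.3 and 78.3 in melanotropes, 2.69 and 2.31 in somatotropes and 2.73 and 1.70 in lactotropes (log2 fold change 4.38 ± 0.20 (SE), adjusted p = 2.07e-14). Dlk1, an imprinted membrane protein that is also shed, stood at 597 and 413 CPM in corticotropes, 81.98 and 95.4 in melanotropes, 4412 and 4536 in somatotropes and 991 and 917 in lactotropes (log2 fold change -3.28 ± 0.16 (SE), adjusted p = 1.48e-04). Angpt1 and Ramp1 were lower on the Pomc side because of lactotropes alone, at 64.6 and 70.8 and 116 and 116 CPM against 2.14 to 11.6 in the other groups. Of 24 imprinted genes, 8 were higher (33.3%, against 17.9% of all genes) and 10 lower (41.7%, against 20.7%), with a median of -0.01. The first set held Peg3 (log2 fold change 0.83 ± 0.05 (SE), adjusted p = 5.33e-17) beside Usp29. The second held Asb4 (log2 fold change -3.66 ± 0.22 (SE), adjusted p = 1.41e-15) and Grb10 (log2 fold change -3.37 ± 0.48 (SE), adjusted p = 2.15e-07).

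**Figure D5:**
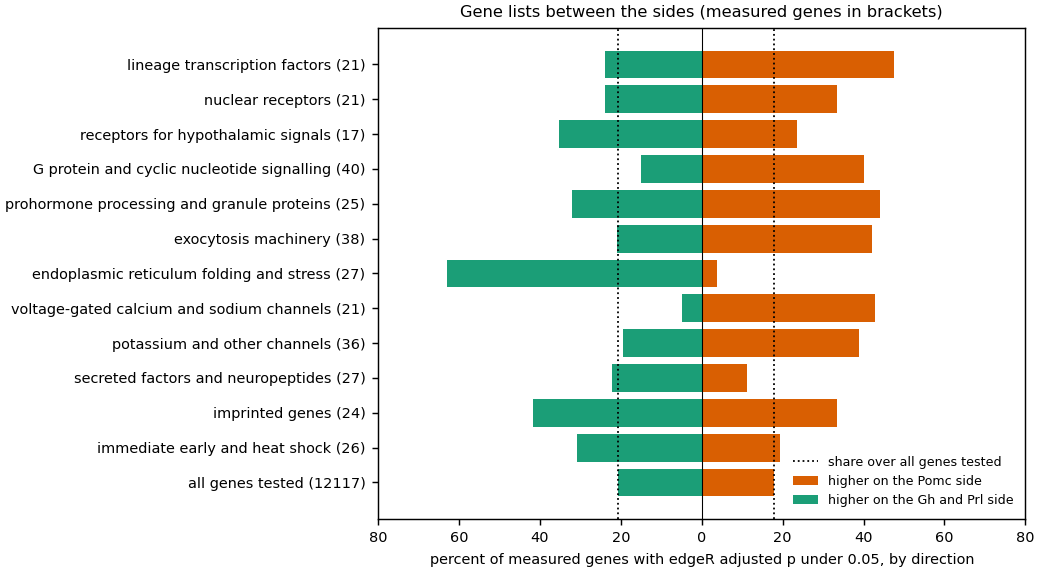
Percent of the measured genes of each list with an edgeR adjusted p under 0.05, to the right for genes higher on the Pomc side and to the left for genes higher on the Gh and Prl side. Dotted lines mark the shares over all 12117 genes, 17.9% and 20.7%. The endoplasmic reticulum list reaches 63% to the left, and the calcium and sodium channels reach 42.9% to the right with 4.76% to the left.

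Genes of the immediate early and heat shock list differed between the 2 Pomc groups. Between the sides 5 of 26 were higher on the Pomc side (19.2%), near the 17.9% of all genes. Another 8 were lower (30.8%, against 20.7%). Without the pool as a block the counts were 4 and 4. Between corticotropes and melanotropes 22 of the 26 were higher in corticotropes and 0 in melanotropes, where 10.5% and 11.4% of all genes were called, with a median log2 difference of 2.34. Atf3, a stress-induced bZIP factor, stood at 395 and 385 CPM in corticotropes, 12.7 and 26.8 in melanotropes, 69.2 and 88.1 in somatotropes and 24.2 and 28.7 in lactotropes (log2 fold change 4.25 ± 0.17 (SE), adjusted p = 5.80e-21, for corticotropes minus melanotropes). Dnajb1, a heat shock co-chaperone, stood at 1432 and 1328 CPM in corticotropes, 77.7 and 183 in melanotropes, 832 and 1080.2 in somatotropes and 476 and 674 in lactotropes. Egr4, an early growth response factor, was the 1 gene of the list that was separated, at 91.8 and 123 CPM in corticotropes, 7.07 and 5.36 in melanotropes, 0.885 and 0.321 in somatotropes and 0.195 and 0.308 in lactotropes.

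The promoters of the separated genes were searched in the RefSeq entries of 300 bases, from 250 before to 50 after the start. TATNCAT, searched on both strands, occurred in 3 of the 8 genes of the Gh and Prl side that had an entry (Pou1f1, Emb and 5330429C05Rik) and in 0 of the 10 of the Pomc side, against 4.97% of 9192 tested genes with an entry and 10.2% of all 27025 genes with one. In the wider sets separated at least 2-fold at any level, 161 genes on the Gh and Prl side (1.33% of those tested) and 249 on the Pomc side (2.05%), it occurred in 10.3% of 116 and 4.57% of 175 genes with an entry. TCACACC occurred in 1 of 10 and 1 of 8 genes (3.91% of those tested), TAATCC in 1 and 1 (6.78%) and the E-box CANNTG in 6 and 4 (67.2%). Both strands were searched for each motif, and matches of different motifs may overlap.

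Markers of other cells were summed in the same libraries. Stem cell markers reached 466 CPM in corticotropes of library 2 and 204 in library 1, 551 to 718 in melanotropes, 122 to 123 in somatotropes and 298 to 322 in lactotropes, with 7 to 11 of 11 detected. Sox9 and S100b were at 0 in corticotropes of library 1, and S100b, Aldh1a2 and Lcn2 in melanotropes of both libraries. Haemoglobin and Alas2 reached 1425 CPM in corticotropes of library 1 and 80.98 in library 2, 33.7 to 40.7 in melanotropes and 469 to 725 on the other side. Endothelial markers reached 6.37 to 130.5 CPM in the 4 groups against 13475 to 15225 in endothelial cells, and macrophage markers 3.85 to 84.3 CPM. Gonadotrope markers reached 68.8 to 138 CPM, thyrotrope markers 9.64 to 37.4, pituicyte markers 2.09 to 25.5 and fibroblast and pericyte markers 7.51 to 115.6. An alternative left out barcodes with at least 3 UMIs of some of the stem cell markers, 20 haemoglobin UMIs or 3 endothelial markers detected. No barcode was left out for the other marker lists. In that alternative, 13 of the 15 and 11 of the 11 separated genes met the rule, Cnn3 and Rorb having dropped below it. Mitochondrial transcripts made up 5.66% of UMIs outside the hormone genes in the median corticotrope, 7.27% in melanotropes, 4.83% in somatotropes and 4.27% in lactotropes, and their part in the differences was not tested.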

How the data were processed

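The deposited matrix holds raw UMI counts of 28693 genes, which the authors obtained with Cell Ranger and STAR on mm10, per the submitters' processing notes; their versions are not named in the sources used here. The t-SNE coordinates are the authors' own, with no unit. The suffix of each barcode was read as the pool number. Counts of 5 cell groups (gonadotropes included, for the spread) in 2 libraries were summed and fitted with edgeR 4.0.16 (R 4.3.3; TMM, filterByExpr, robust quasi-likelihood, pool as a block since both sides come from the same glands, 4 residual degrees of freedom, common biological coefficient of variation 0.0568). P-values were adjusted over 12117 genes; Pomc, Gh, Prl, Cga and Pcsk2 got no test. Scrublet's threshold marked 2 and 6 cells and so had not worked; doublets were kept, and an alternative removed the 7.6% with the highest scores (494 and 537 cells). Gonadotropes had Cga at 1% or more and at least 3 Lhb UMIs, and endothelial cells at least 3 of 11 markers.

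Members, lists and tests were chosen with earlier results of these data known. Genes named were the 15 per side with the widest gap from 50 CPM (plus 1 CPM on both values), list members that were separated or passed the test from 20 CPM, at most 3 per direction outside factors and receptors, and up to 5 per side that differed within it; other genes were named after their values were seen (Avpr1b, Sstr5, Unc80). Not every gene that the rule names is reported here by name, lineage factors among them; all count in their lists. In simulated data, the side contrast over 11288 genes recovered 32 of 50 genes changed 1.5-fold, 50 of 50 at 2-fold, 50 of 50 at 4-fold and 49 of 50 lowered 2-fold, with 9 false calls among 11088. There, unchanged genes had the same level in all groups, and all genes shared a common dispersion without a pool effect. Scarce genes were not among those changed. These counts therefore do not measure how the test performs on the real spread or on genes with few counts. Gene positions are from GENCODE M21 (28339 of 28693 identifiers matched). Depth, the number of pools and the small Pomc groups limit precision: 3 counts equal 1.83 CPM over both melanotrope libraries and 0.0496 CPM over both somatotrope libraries.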

Additional observations from a re-analysis of the deposited data

How the results depend on the processing

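Between the sides, 2175 genes were higher on the Pomc side and 2512 on the other. The counts stayed within 1.5 times under other scaling, DESeq2, other filters, other gates, removed doublet scores and no replicate block (2123 and 2442 without the block), and with totals that leave out 7 hormone genes 55.3% of called genes were higher on the Pomc side instead of 46.4%. Leaving out the block moved no count over all genes by over 1.5 times, between the sides or within them. Among list counts, it moved the immediate early and heat shock genes lower on the Pomc side from 8 to 4; without gonadotropes these were 5, and DESeq2 called 8 instead of 5 higher. DESeq2 also called 3 instead of 6 G protein and cyclic nucleotide genes lower, and with totals that leave out 7 hormone genes 2 folding genes instead of 1 were higher. DESeq2 called 1914 genes higher in somatotropes than in lactotropes, against 3065. Genes separated in favour of the Gh and Prl side numbered 2190 without a low-count filter. With 1 library left out, only 2 values per side remained, and 2327 to 2396 genes were separated in favour of the Pomc side and 2658 to 2864 in favour of the other, of which 19 to 20 and, on the Gh and Prl side, 19 with either library left out were at least 2-fold from 50 CPM. With totals that leave out 7 hormone genes, 25 genes of the Pomc side and 19 of the Gh and Prl side met the 2-fold rule. No test was possible with 1 library left out, since no residual degrees of freedom remain. Stricter limits (Pomc from 5%, or 30% and 5 Pcsk2 UMIs for melanotropes, Gh above 50%, Prl above 25%) left 2.01% corticotropes, 1.20% melanotropes, 44.6% somatotropes and 15.4% lactotropes. These limits also lowered the highest allowed shares of the other hormone genes in each group and allowed corticotropes no Pcsk2 UMI. Shares of cells with a UMI moved with depth: thinned to 1000 UMIs and without thinning, Tbx19 was found in 18.2% and 53.0% of corticotropes, 11.1% and 33.7% of melanotropes and 0.100% and 0.661% of somatotropes, and in 0.333% of lactotropes without thinning. Pou1f1 was found in 0.653% and 2.76% of corticotropes, 0% and 2.63% of melanotropes, 27.3% and 75.1% of somatotropes and 39.2% and 89.1% of lactotropes. Among the 100 named genes no side difference that passed the test changed direction under these settings where it was fitted. Calls were lost under at least 1 of them for Dnajb1, Ero1l, Insm1, Jun, Kcnmb4, Neurod1, Pax7, Scn8a and Zbtb20, and Sstr1 was not tested with at least 20 counts. No other named gene that passed the test lost its call where it was tested; the cause was not tested.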

Other observations

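Cycling markers, fixed as a list of other cells, fell into an uneven pattern between the sides. Of 9 measured, 7 were lower on the Pomc side (77.8%, against 20.7% of all genes) and 0 higher, with a median log2 difference of -1.47. Their summed level was 25.7 to 40.0 CPM in corticotropes and 30.6 to 74.2 in melanotropes. It was 68.4 to 69.0 in somatotropes and 54.3 to 75.0 in lactotropes. These sums, like those of the other marker lists, are without TMM normalization. On that scale melanotropes overlapped with the Gh and Prl side. Whether cycling cells pass the hormone limits equally on both sides was not tested.

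Transcripts of both lineage factors in 1 cell were rare. Without thinning, both Tbx19 and Pou1f1 had a UMI in 6 of 581 corticotropes (3 in each library), in 1 of 98 and 3 of 124 melanotropes, in 18 of 3565 and 20 of 3544 somatotropes and in 4 of 1207 and 5 of 1497 lactotropes. Of the somatotropes with a Tbx19 UMI, 25 and 22 in number, most thus also had one of Pou1f1, as did most somatotropes overall.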
